A study of Mus musculus with 5 samples.

Results

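A chromosome conformation capture carbon copy (5C) experiment on mouse embryos carried, beside the primers for the Shh region on chromosome 5, a small set of primers for a region around the gene Usp22 on chromosome 11. The members described here are the primer pairs that contain at least 1 Usp22 region primer. There were 1978 of them among 33306 pairs in all. Of these, 30 joined 2 fragments inside the Usp22 region (6 forward by 5 reverse primers) and 1948 joined a Usp22 region fragment to a Shh region fragment on the other chromosome. The remaining 31328 pairs lay within the Shh region, which had 354 fragments against 11 in the Usp22 region.

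In 5C, crosslinked chromatin is cut with a restriction enzyme, here HindIII, and ends held close together are ligated. A forward and a reverse primer that meet at a junction are then joined and sequenced, so that a read counts a forward fragment ligated to a reverse fragment. Fragments near each other on a chromosome are ligated often, and the frequency falls as the separation grows. Fragments on different chromosomes have no shared fibre, so reads between them give the level from chance ligation and any other source that needs no linkage. Usp22 encodes a deubiquitinase of the SAGA coactivator complex that acts on histones and is expressed in many tissues. The study's methods used this region to judge each experiment and did not use it to normalise the Shh region. Shh encodes the secreted signal Sonic hedgehog, and its limb enhancer, the ZRS, lies in an intron of the gene Lmbr1 at the far end of the domain.

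All 5 libraries came from CD1 mouse embryos at E11.5 with no genetic change or treatment other than fixation. Limb buds gave 2 biological replicates, the embryo body without limbs and head gave 1 library, and heads gave 1 sample sequenced as a library and a technical repeat. Limb buds of many embryos were pooled, body and head each came from a few embryos, and each tissue held many cell types. The libraries held 675954 and 1714491 reads (limb replicates 1 and 2), 1056071 (body), 1048682 (head library 1) and 931061 (head library 2), so that 3 reads on a pair stood for a frequency of 4.44 in the shallowest once scaled to 1000000 reads. Below, a frequency is the mean number of reads per primer pair, given as reads per 1000000 reads of the library (RPM). Since the second head library is labelled as a technical repeat of the first, the study had 4 samples, and comparisons of limb with non-limb tissue rested on 2 against 2.

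The Usp22 region covered 86.0 kb (mm9, chr11:60917307-61003268) and held the whole of Usp22 (chr11:60965287-60988557, minus strand, ENSMUSG00000042506.9) and of Tnfrsf13b (chr11:60940257-60962874, plus strand), which encodes a receptor of B cells. Fragments are named by the numbers in the files. The sequences below are the last 30 bases at the end of highest coordinate of the fragments on which the results turn, read from the mm9 reference on the plus strand, with the HindIII site in capitals. Fragments 11 and 12 made the most read pair of the region, fragment 14 was the least read, and fragments 2 and 17 with Shh region fragments 378 and 83 made the most read junctions between the chromosomes.
Usp22 fragment 11 (chr11:60976171-60976200): ccatctctaacaatccctttgtaaAAGCTT
Usp22 fragment 12 (chr11:60977361-60977390): ttagctaagatctcttataaataaAAGCTT
Usp22 fragment 14 (chr11:60977909-60977938): gtgcaggagtctaagccaccagggAAGCTT
Usp22 fragment 2 (chr11:60924212-60924241): aggaagataaaaagatggggatggAAGCTT
Shh region fragment 378 (chr5:29513986-29514015): ggcagccggactcacgtcctcacaAAGCTT
Usp22 fragment 17 (chr11:61003242-61003271): tttcccaaaatccaagctgacttcAAGCTT
Shh region fragment 83 (chr5:28593385-28593414): aaattcactcttagctacaaccgcAAGCTT

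The deposited boundaries lay in the middle of the site: 364 of the 365 fragments ended at a HindIII site of the reference and 364 started at one. Usp22 region fragments ran from 139 bp (fragment 14) to 19093 bp (fragment 16), with a G+C content between 44.3% (fragment 16) and 51.3% (fragment 12).

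Within the Usp22 region, the 30 pairs took a small and fairly even share of each library. They held 7884 and 20590 reads in limb, 19859 in body, 11771 in head library 1 and 7805 in head library 2. As shares these were 1.17% and 1.20% (limb, mean 1.18% ± 0.0245, SD, n = 2), 1.88%, 1.12% and 0.838%. Body was the highest of the 5, and the head repeat the lowest. Per pair, the frequency was 389 and 400 RPM in limb (395 ± 8.15, SD, n = 2), 627 in body and 330 in the summed head sample. The limb values lay between those of body and head, and an exact two-sided permutation test over the 4 samples gave p = 1, where the smallest p that 2 against 2 samples allow is 0.333.

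Most of these reads came from a few neighbours on the chromosome. The 3 pairs with the highest mean, all between adjacent fragments, were fragments 11 and 12, 11 and 10, and 17 and 16, and together held between 63.7% (limb replicate 2) and 78.5% (head library 2) of the region's reads. The pair of fragments 11 and 12, both with Usp22 exons, gave 3654 and 3840 RPM for the limb replicates, 5292 in body, 3500 in head library 1 and 4200 in head library 2. Its range over libraries was narrow, whereas the pair of fragments 11 and 10 gave 2111 and 2104 in limb, 4965 in body and 2096 and 828 for the 2 head libraries, so the 2 technical libraries of head differed by more than the limb replicates did. The pair of fragments 17 and 16 gave 1834 and 1706 in limb, 3088 in body and 2177 and 1551 in head. Body was the highest for all of these pairs. Over the pairs of non-adjacent fragments, body was not the highest, with 121 RPM per pair against a mean of 125 in limb and 78.5 in the summed head sample.

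The 3 lowest pairs, 14 with 6, 14 with 1 and 14 with 16, shared the forward primer of fragment 14, which lies in a Usp22 intron. The pair of fragments 14 and 6 had 0, 2, 4, 11 and 21 reads in limb replicates 1 and 2, body and head libraries 1 and 2. At the depth of limb replicate 1, where 3 reads stood for 4.44 RPM, its count of 0 did not show that the contact was absent. The pair of fragments 14 and 1 had 2, 0, 5, 42 and 2 reads, and 14 with 16 had 3, 32, 14, 14 and 2, although fragment 16 begins only 3.54 kb from the end of fragment 14. The pairs of the region kept their order between libraries, with Spearman's rho over the 30 pairs between 0.822 and 0.896 for the 10 pairs of libraries. The pairs share primers and so are not independent points, and rho is given as a description.

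**Figure D1:**
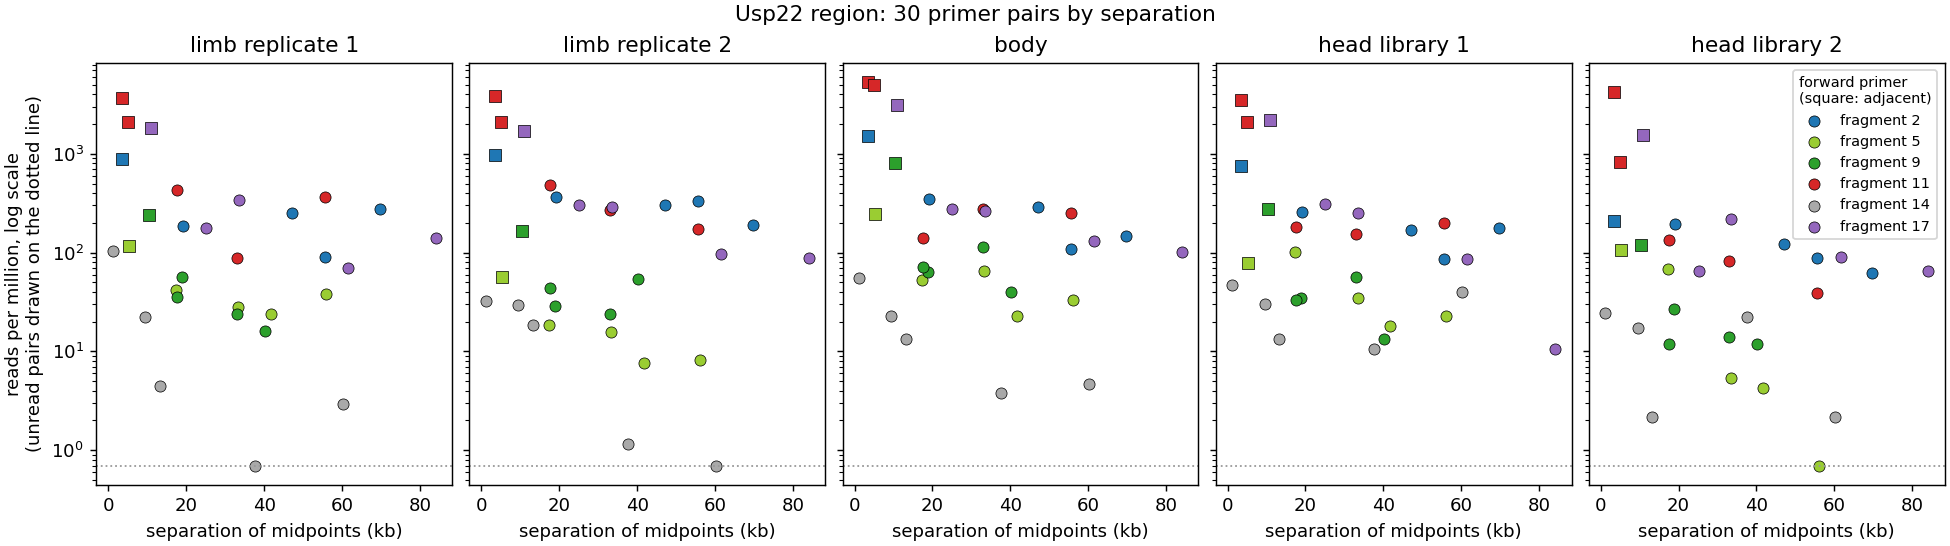
RPM (log scale) of the 30 Usp22 region primer pairs against the separation of the fragment midpoints in kb, 1 panel per library. Colours give the forward fragment and squares the 6 adjacent pairs, which held between 73.6% and 84.6% of the region's reads. Circles show no common fall with separation, and 3 of the 5 pairs of fragment 14 (grey), with fragments 6, 1 and 16, have the lowest means of the region.

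Read frequency fell with separation, but the fall lay between adjacent fragments and the rest. The mean frequency at separations under 20 kb (14 pairs) was 5.47 and 5.62 times that at 40 kb and more (10 pairs) for limb (5.55 ± 0.107, SD, n = 2), 10.5 times for body, and 8.29 and 11.02 times for the 2 head libraries. In RPM, the means for the limb replicates were 695 and 704 under 20 kb, 109 and 150 from 20 to 40 kb, and 127 and 125 beyond. Body gave 1191, 167 and 113, and the summed head sample 614, 104 and 66.6. Every library fell between the first and the second range, while the limb replicates went opposite ways from the second to the third.

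When the 6 adjacent pairs were left out, 8 pairs remained under 20 kb, against 10 at 40 kb and more. The ratio of near to far was then 0.869 and 1.02 in limb, 0.848 in body, and 1.05 and 1.23 for the 2 head libraries. Spearman's rho of reads with separation over the 24 non-adjacent pairs was between -0.0396 (head library 1) and 0.134 (limb replicate 1), against -0.277 to -0.370 over all 30. Thus over all non-adjacent pairs, no common fall was seen in reads as deposited. In the Shh region, over the same range of separations and without adjacent fragments, 3024 pairs fell by a ratio of 4.32 and 4.83 in limb, 7.11 in body and 4.32 and 4.49 in head, with rho between -0.398 and -0.466. The difference between the regions was not tested, as pairs are not replicates.

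The non-adjacent pairs differed by fragment. In every library, forward fragments 2, 11 and 17 each had a higher mean non-adjacent frequency than forward fragments 5, 9 and 14. Averaged over the 4 samples, these frequencies were 217, 241 and 177 RPM for fragments 2, 11 and 17, against 30.3, 42.2 and 21.1 for fragments 5, 9 and 14. Forward fragments 5, 9 and 14 made all of the 8 non-adjacent pairs under 20 kb except 11 with 16 and 2 with 6. Of the 10 pairs at 40 kb and more they made only 9 with 1, 5 with 16, 5 with 12 and 14 with 1. The near to far ratios without adjacent fragments thus also compared different primers, and the parts of separation and primer were not tested. Interchromosomal reads measure the same fragments where separation has no meaning. Dividing the reads of each Usp22 region pair by the mean interchromosomal reads of both of its fragments (leaving out the isolated contacts described below) was a step chosen after the data were seen. With it, the 24 non-adjacent pairs gave a near to far ratio of 1.58 and 4.46 for the limb replicates, 2.99 in body, and 3.41 and 6.13 for the 2 head libraries, and rho with separation was -0.250, -0.604, -0.544, -0.571 and -0.484. All 5 libraries moved in this direction. Without fragment 14, whose interchromosomal level rests on 5 to 14 reads per library, the divided reads of 19 pairs gave a ratio of 1.15 and 2.24, 1.90, and 4.01 and 3.45, and the undivided reads of the same pairs 1.07 and 1.35, 1.08, and 1.39 and 1.62. Leaving out that fragment thus raised the undivided ratio too, and in limb replicate 1 the division then moved it little. Other divisors were thin as well. In head library 1 the levels of fragments 9 and 5 rested on 5 and 9 reads, so the ratio of 4.01 there is no firmer. In body the level of fragment 5 rested on 11 reads.

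By the mean per pair with adjacent fragments kept, the Usp22 region was read more than the Shh region at equal separations, except in head library 2 from 20 to 40 kb. Under 20 kb its mean frequency was 1.49 (head library 2) to 1.78 times (limb replicate 1) that of 856 Shh region pairs. Without adjacent pairs the order under 20 kb was the opposite, with 110 RPM against 223 in limb replicate 1 and 96.0 against 314 in body, and likewise in the other libraries. Most of the 8 Usp22 region pairs left there used forward fragments 5, 9 and 14, which were low in non-adjacent reads. From 20 to 40 kb the mean ratio was 1.29 and 1.64 in limb, 1.90 in body, 1.43 in head library 1 and 0.958 in head library 2. At 40 to 86 kb, against 1722 pairs, it was 2.46 and 2.44 times in limb, 2.56 times in body, and 1.52 and 1.11 times for the 2 head libraries. Medians over all pairs under 20 kb were also lower in the Usp22 region, at 0.501 (limb replicate 2) to 0.743 times (limb replicate 1) those of the Shh region.

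Between the chromosomes, 2 numbers describe each library, as the reads of a single pair decided the mean. All 1948 pairs together held 10325 and 12421 reads in limb, 762 in body, and 6444 and 21974 for head. These were 1.53%, 0.724%, 0.0722%, 0.614% and 2.36% of the reads, with Wilson 95% intervals from 0.0672% to 0.0775% in body and from 2.33% to 2.39% in head library 2, which cover counting error only. The frequency was 7.84 and 3.72 RPM per pair in limb (5.78 ± 2.91, SD, n = 2), 0.370 in body, and 3.15 and 12.1 for the 2 head libraries (7.37 summed). Limb and non-limb overlapped (exact two-sided permutation test, p = 0.667, where the smallest p possible was 0.333). The largest and smallest libraries by depth were not those with the most or fewest interchromosomal reads.

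A single junction, of Usp22 region fragment 2 (chr11:60918191-60924238, no annotated gene) with Shh region fragment 378 (chr5:29508039-29514012, no annotated gene), held 9181, 9854, 162, 4345 and 14700 reads in the order limb 1, limb 2, body, head 1, head 2. It made up 88.9%, 79.3%, 21.3%, 67.4% and 66.9% of all interchromosomal reads. Fragment 378 had no read with the other 5 forward Usp22 region fragments in 4 libraries, and 64 such reads in head library 2. The second such junction, fragment 17 (chr11:61000572-61003268, no annotated gene) with Shh region fragment 83 (chr5:28585390-28593411, no annotated gene), held 390, 1080, 7, 624 and 1293 reads.

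Both belonged to a set of 10 isolated contacts, defined after the data were seen as pairs that in 2 or more libraries had 100 reads or more and 20 times or more the reads of any neighbouring pair (2 primers to each side), with fragments of 1 chromosome lying 84 kb or more apart. The other 8 lay in the Shh region. The 10 together held 14.1% and 8.04% of the limb reads, 0.150% of the body reads, and 5.80% and 17.9% of the head reads. Across this range, the junction of fragments 2 and 378 made up between 7.14% and 10.2% of the reads of the set, namely 9.61%, 7.15%, 10.2%, 7.14% and 8.83%. The sets of 8 and of 2 therefore rose and fell together over the libraries, and body was the lowest for each of the 10 contacts. Over the 24 bases before the sites at the ends of highest coordinate, the longest run that both fragments of a contact share on either strand was 4 bases for each interchromosomal contact, against a median of 5 and a highest value of 11 over all 1948 pairs. What gives rise to the isolated contacts was not tested.

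**Figure D2:**
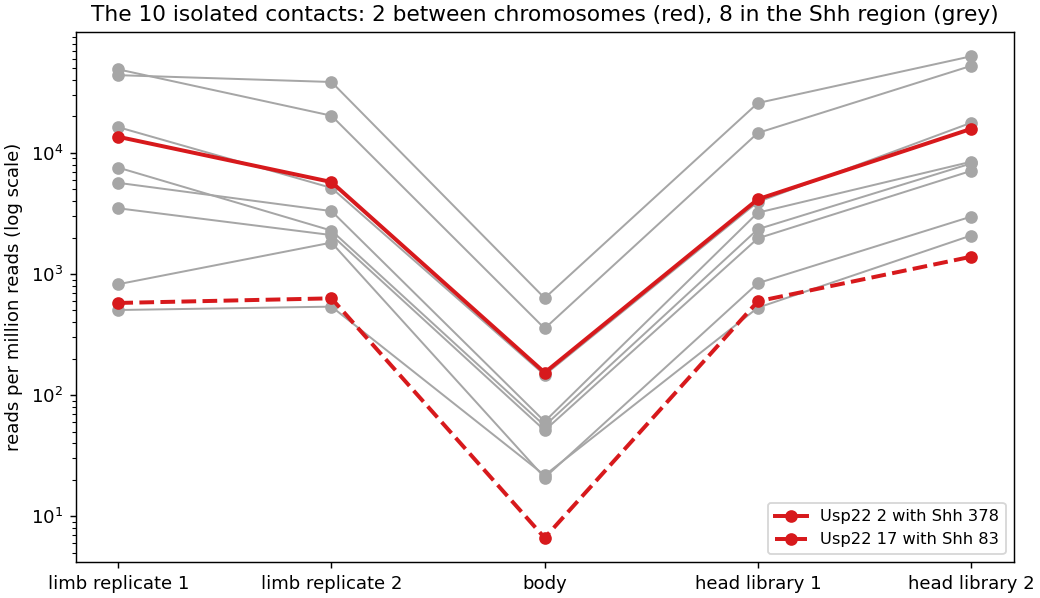
RPM (log scale) of each of the 10 isolated contacts in the 5 libraries, with the 2 interchromosomal ones in red (solid, Usp22 fragment 2; dashed, fragment 17) and the 8 of the Shh region in grey. Lines join the values of 1 contact, and all of the contacts are lowest in body, where fragments 2 and 378 had 153 RPM against 15788 in head library 2.

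Without these 2 junctions the interchromosomal background was low and more even. It came to 754, 1487, 593, 1475 and 5981 reads over 1946 pairs, or 0.573 and 0.446 RPM per pair in limb (0.509 ± 0.0902, SD, n = 2), 0.289 in body, and 0.723 and 3.30 for the 2 head libraries (1.94 summed). The 4 libraries other than the head repeat lay between 0.289 and 0.723. Head library 2 stood apart from head library 1 by 4.57 times although it is labelled a technical repeat, which is more than the spread between the limb replicates. The limb replicates lay between body and the summed head sample (exact two-sided permutation test, p = 1). The smallest p possible was 0.333, so the test could not have shown a difference. Against the same background, the mean over all 30 Usp22 region pairs stood at 678 and 898 times in limb, 2172 times in body, and 518 and 84.6 times for the 2 head libraries. Adjacent fragments held 73.6% to 84.6% of those reads. Without them the region's frequency was 125 RPM in limb, 121 in body and 78.5 in the summed head sample, so body no longer stood above limb.

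Most interchromosomal pairs were not read at all, namely 94.4% and 92.9% in limb, 87.7% in body, and 95.5% and 82.4% in head. Body, with the fewest interchromosomal reads, spread them over more pairs than limb or head library 1. Reduced to the depth of limb replicate 1, the expected number of pairs read was 110 and 105 in limb, 192 in body, and 76.2 and 327 for the 2 head libraries. Reads were clumped on the pairs that had any, since the variance over pairs was 12.7 and 21.2 times the mean in limb, 3.82 times in body, and 40.4 and 32.4 times in head. Independent single reads at the same rate on every pair would give a ratio near 1. Rates that differ between pairs also raise it, and the parts were not tested.

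Most pairs read in 1 library were not read in a second one, but sharing was above the share read over all pairs. Of the 1946 pairs, 1258 were read in no library, 509 in 1, 145 in 2, 28 in 3, 5 in 4 and 1 in all 5. The limb replicates shared 16 pairs. These were 14.8% of those read in replicate 1, where replicate 2 read 7.04% of all 1946 pairs. They were 11.7% of those in replicate 2, where replicate 1 read 5.55% of all. The head libraries shared 26. These were 30.6% of those of the first, where the second read 17.5% of all, and 7.65% of those of the second, where the first read 4.37%. Spearman's rho between libraries over these pairs was 0.0508 to 0.0988, against 0.162 to 0.442 over the Shh region pairs at 500 kb or more and 0.822 to 0.896 within the Usp22 region. A larger share of pairs was read in those other sets. The most read pairs after the isolated contacts also varied between libraries. Shh region fragment 103 (chr5:28652424-28656081, an intron of the RNA-binding protein gene Rbm33) with Usp22 region fragment 6 was read in every library, with 30, 49, 1, 86 and 106 reads. Fragments 373 and 1 had 0, 1, 3, 112 and 23, fragments 59 and 16 had 30, 0, 0, 0 and 87, and fragments 259 and 6 had 114 in head library 2 and 0 in the others.

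Per fragment, the interchromosomal level was a property that the Usp22 region fragments kept in part between libraries. Each had 176 or 178 partners across the Shh region, and the order of the 11 fragments had a rho of 0.615 to 0.882 between libraries (median 0.653). Averaged over the 4 samples and without the isolated contacts, fragment 17 had 1.57 RPM per pair, fragment 10 (Usp22 exon) 1.21, fragment 2 1.15, fragment 1 (no annotated gene) 1.13 and fragment 6 (Tnfrsf13b exon) 1.00. Fragments 16 and 12, with Usp22 exons, followed at 0.937 and 0.761, and fragment 11 at 0.549. The lowest were fragment 9 (exons of both genes) at 0.307, fragment 5 (no annotated gene) at 0.262 and fragment 14 at 0.0568. The summed head sample weighed most in the means of the higher fragments. For fragment 17 it gave 3.66 RPM per pair, against 1.17 and 0.827 in limb and 0.642 in body.

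The low fragments were low in nearly every library. Fragment 14 had 14, 5, 6, 8 and 14 interchromosomal reads in the order given above, fragment 5 had 24, 39, 11, 9 and 225, and fragment 9 had 27, 53, 21, 5 and 248. Fragment 17 had 140, 251, 120, 163 and 1119. Fragment 14 was thus the lowest in every library except head library 1, in which fragment 9 was, and in the head repeat it was the only fragment below limb replicate 1 in RPM. Other ranks changed between libraries, as fragments 16 and 6 were among the highest in limb replicate 1 and not in body. Fragment 17 lay below fragments 1, 2 and 6 in head library 1. Fragment 12 lay below fragment 9 in body, at 0.102 against 0.112 RPM. Fragment 11 lay below fragment 9 in limb replicate 1, at 0.199 against 0.224 RPM.

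**Figure D3:**
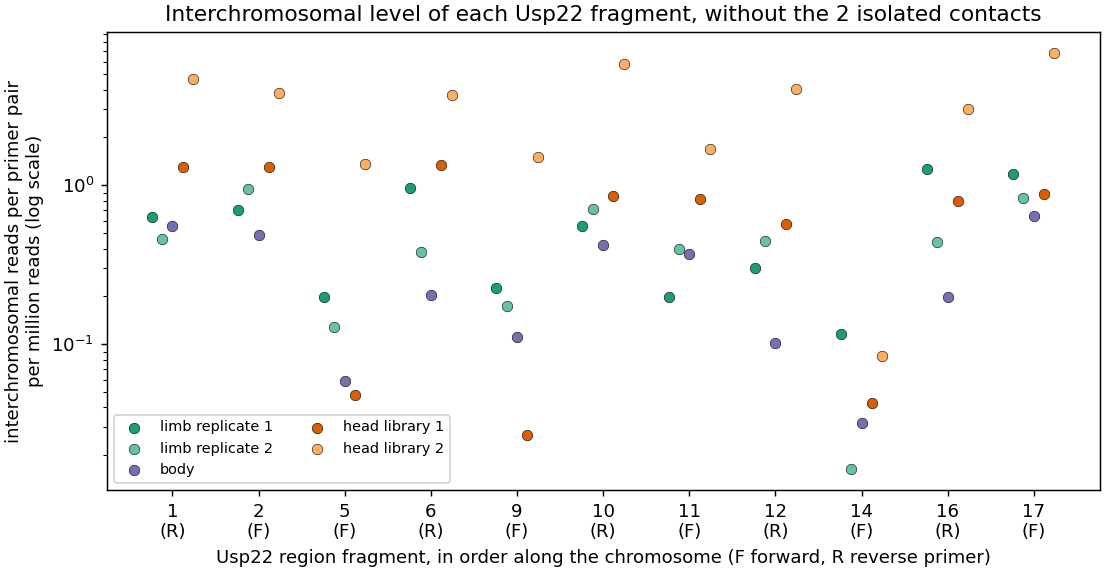
Interchromosomal reads per primer pair in RPM (log scale) of the 11 Usp22 region fragments, 1 point per library, without the 2 isolated contacts. Fragments 5, 9 and 14 lie low and fragment 17 high, and head library 2 lies above the other libraries for every fragment except 14, where limb replicate 1 is higher.

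The fragments with little interchromosomal signal were also those with few non-adjacent reads inside the region, with rho over the 11 fragments of 0.427 (limb replicate 1) to 0.736 (body). Fragment length did not order them, as rho between interchromosomal level and length was -0.227 to 0.319 over the libraries. Fragment 11 went against the first pattern, with the highest non-adjacent level in the region, 241 RPM, and the eighth interchromosomal level. Both of these measures share the primer, the digestion and the ligation of the fragment, and their parts were not tested.

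For the 354 Shh region fragments, which had only 5 or 6 Usp22 region partners each, the level was too thinly counted to rank. Without the isolated contacts, no interchromosomal read in any library was found for 48 fragments, so the 3 lowest cannot be named. On the same basis, 7 were read in all 5 libraries. The highest means, again without the isolated contacts of fragments 378 and 83, were those of fragments 103 (10.6 RPM per pair), 373 (7.25) and 263 (4.62, an intron of the noncoding transcript 9530036O11Rik). Fragment 103 had 36, 49, 3, 86 and 168 reads, whereas fragment 373 had 0, 47, 3, 157 and 70. Single junctions held many of these reads. Fragment 103 with Usp22 region fragment 6 held 30, 49, 1, 86 and 106, and fragment 373 with fragment 1 held 0, 1, 3, 112 and 23. Between libraries the order of the Shh region fragments had a rho of 0.0837 to 0.215, although the same fragments kept their order in contacts within the region, at 0.803 to 0.966. Summed in steps of 200 kb, the background along the region varied from lowest to highest step by 2.14 and 3.95 times in limb, 1.83 times in body, and 3.64 and 2.05 times in head. The lowest step was another one in each library. The highest step began at 1000 kb in the limb replicates and head library 1, at 600 kb in body and at 200 kb in head library 2.

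Set against this background, contacts at 500 kb and more within the Shh region were above it once the isolated contacts were set aside. The 15519 such pairs had a mean of 15.3 and 20.5 times the interchromosomal mean for the limb replicates (17.9 ± 3.69, SD, n = 2), 19.6 times in body and 13.8 times in head library 1. In head library 2 the ratio was 3.14. There the contacts themselves, at 10.4 RPM per pair, were close to those of head library 1 at 10.0, while the background differed by 4.57 times. With all pairs left in, the ratios were 1.22 and 2.58 (1.90 ± 0.959, SD, n = 2), 15.3, 3.29 and 0.963, so that a background set by the mean of all pairs put limb replicate 1 and head library 2 at about the level between chromosomes.

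The ratio fell fast and then levelled. In the limb replicates, it was 143 and 200 in the first 200 kb, 28.2 and 38.3 from 200 to 400 kb, 14.9 and 20.2 from 600 to 800 kb, and 15.5 and 21.0 from 1000 to 1200 kb. Body went from 392 through 40.7 and 19.1 to 18.9 over the same steps, and head library 1 from 124 through 24.1 and 13.7 to 13.3. Between 600 and 1400 kb no step of these 4 libraries was below 13.3 times or above 22.2 times the background. In the last step, from 1600 kb on, 93 pairs gave 4.94 and 5.28 in limb, 7.90 in body, and 8.36 and 1.99 in head. Contacts at the largest separations in the region thus stayed above the background in every library without the isolated contacts, and fell below it in limb and head library 2 when all pairs were kept.

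**Figure D4:**
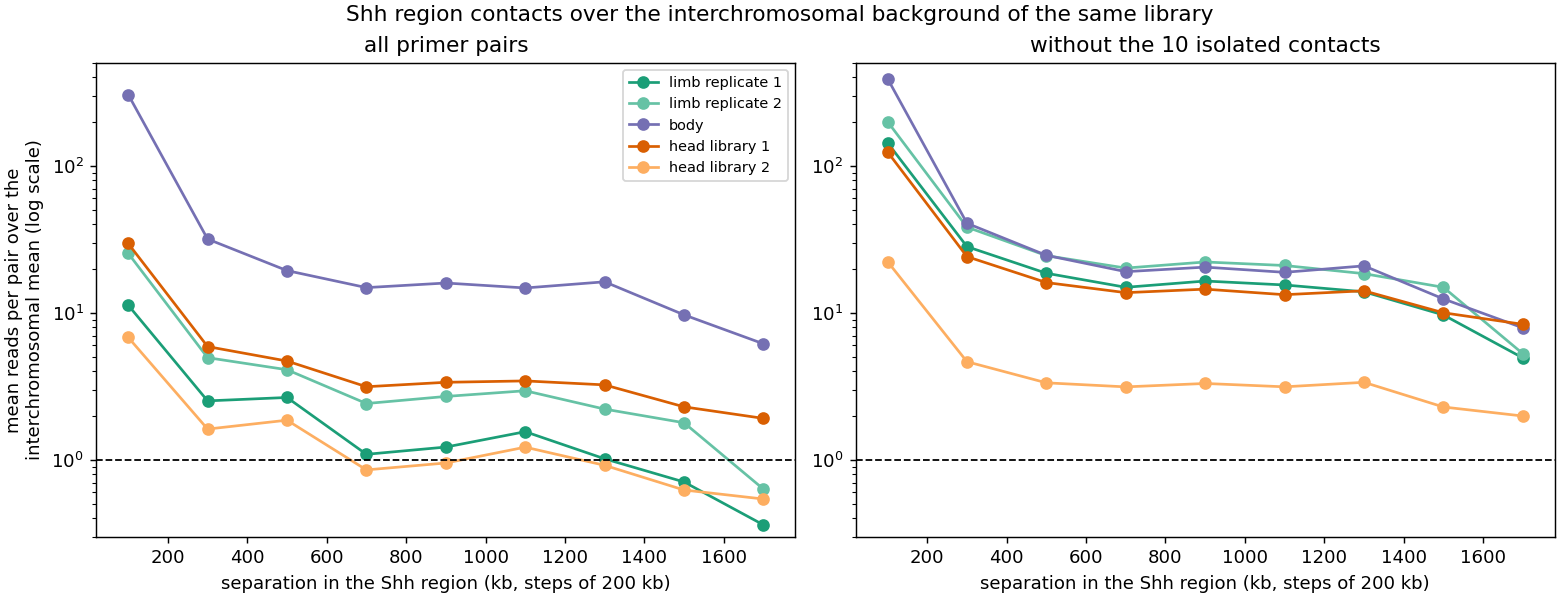
Mean reads per pair in the Shh region over the mean of the interchromosomal pairs of the same library (log scale), by separation in steps of 200 kb, with the last step open, for all pairs (left) and without the 10 isolated contacts (right). The dashed line marks a ratio of 1; without the isolated contacts all libraries lie above it, and head library 2 lies at 3.14 for 500 kb and more.

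Counting the pairs that were read puts less weight on single pairs. Of the pairs at 500 kb or more, 47.0% and 54.4% were read at least once in limb, 64.7% in body, and 38.1% and 31.3% in head, against 5.65%, 7.14%, 12.3%, 4.47% and 17.6% of the interchromosomal pairs. The share above the 95th percentile of the interchromosomal pairs, which lay at 1, 1, 2, 0 and 25 reads, was 42.6%, 49.8%, 49.4%, 38.1% and 16.3%. Of the interchromosomal pairs, 4.16%, 4.68%, 4.32%, 4.37% and 4.83% lay above it. In every library, more of the long-range pairs lay at or below that percentile than above it. In head library 1, where the percentile was 0 reads, those at or below it were the unread pairs.

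With the isolated contacts left out of the background, contacts between the fragments of the Shh gene and those of Lmbr1, the gene that houses the ZRS, were 63.0 and 75.1 times the background in limb (69.0 ± 8.59, SD, n = 2), 78.0 times in body, and 51.8 and 5.79 times in head, over 35 pairs. With all pairs in the background, they were 6.80 ± 3.11 times it in limb (SD, n = 2), 60.8 times in body, and 11.9 and 1.58 times in head. The frequencies themselves were 36.1 and 33.5 RPM in limb, 22.5 in body, and 37.5 and 19.1 in head. Body had a higher ratio than both limb replicates against either background, and a lower frequency. The Usp22 region at 40 to 86 kb stood at 222 and 281 times the background without the isolated contacts in limb, 392 times in body, and 114 and 14.7 times in head. Against the background of all pairs, these were 16.2 and 33.7 times, 306 times, and 26.2 and 4.01 times.

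Limb and non-limb tissue were also compared for each primer pair, in a fit of edgeR's quasi-likelihood test over 17531 pairs with enough reads, among them 28 of the 30 Usp22 region pairs and 37 interchromosomal pairs. No member passed an adjusted p of 0.05, where the share over all pairs tested was 0%. At an unadjusted p under 0.05 stood 1 Usp22 region pair and 3 interchromosomal pairs, where the share over all pairs tested was 3.54%. The Usp22 region pair joined fragments 11 and 16, with 432 and 486 RPM in limb, 139 in body and 160 in the summed head sample. Its log2 difference of limb minus non-limb was 1.37 (SE 0.52, adjusted p = 1.00). The median log2 difference was -0.43 over the Usp22 region pairs and -0.09 over all pairs. For fragments 2 and 378 the difference was 0.97 (SE 1.78). The biological coefficient of variation was 1.06 with 2 samples against 2. In counts simulated with that variation, the fit recovered 0 of 143 tested pairs that had been changed by a log2 difference of 5. The fit could therefore not detect even large differences, and the count of 0 does not show that pairs are alike.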

How the data were processed

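The authors processed Ion PGM reads through a Torrent 5C pipeline on Galaxy and deposited raw counts of reads per pair of forward and reverse primer, with fragment positions on mm9, per the labels. The version is not given in the sources used here. Counts were not normalised and carry no molecular identifiers, so intervals cover counting error only. Counts were divided by the library total and shown per 1000000 reads, where the study's methods use 1000. The head libraries were summed for tests. Limb replicates are numbered in accession order. Separation is between fragment midpoints. Members and lists were chosen with earlier results of these data known. The isolated contacts were defined after seeing the data. Fragments named are all 11 of the Usp22 region, the 3 highest and lowest pairs in it, the 5 highest interchromosomal pairs and any with 100 reads in a library, and the highest and lowest Shh region fragments. Pairs were tested with edgeR 4.0.16 (R 4.3.3; TMM, filterByExpr, Benjamini-Hochberg), with DESeq2 1.42.0 as an alternative. Other values used Python 3.11.15, scipy 1.17.1, pandas 2.3.3 and numpy 2.4.6. Scripts were tested on simulated data. Replicates of head are technical, and the spread between limb replicates may be partly so. Sequences and gene annotation come from the NCBIM37 (mm9) assembly and its GENCODE annotation.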

Additional observations from a re-analysis of the deposited data

How the results depend on the processing

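The size of the interchromosomal background depended on the most read pairs, as did the order of head library 1 and the limb replicates. By group, body was lowest and head highest in nearly every setting of the next sentence. The exception was the mean over pairs with a read, where limb was highest. In RPM for limb, body and head, the background was 0.454, 0.280 and 1.82 with pairs capped at the 99th percentile, 0.819, 0.272 and 2.43 without Usp22 fragment 2, 95.5, 3.01 and 35.8 over pairs with a read, and 0.509, 0.289 and 1.94 without the isolated contacts (added after seeing the data). With reads of the Shh region as the denominator, head was 7.55. The Usp22 region frequency was 404, 639 and 338 with that denominator, 125, 121 and 78.5 without adjacent fragments, and 94.8, 123 and 87.9 as a median. Its near to far ratio was 4.33, 8.37 and 7.18 between nearest edges, 0.944, 0.848 and 1.12 without adjacent fragments, 1.55, 1.82 and 2.04 as medians, and 16.7, 16.3 and 9.96 when divided by the interchromosomal level of both fragments. With the last step and without the isolated contacts it was 10.9, 13.0 and 8.11, and without adjacent fragments as well 3.02, 2.99 and 3.11. Shh region contacts at 500 kb and more over background were 19.2, 19.5 and 5.29 capped, 12.7, 18.0 and 3.85 against the product of both fragments, 11.8, 20.8 and 4.52 without Usp22 fragment 2, 17.9, 19.6 and 5.25 without the isolated contacts, 18.4, 20.5 and 5.04 against the product without them, and 16.4, 18.5 and 5.04 from 1000 kb without them. From 200 kb with all pairs, body was 20.1 and head 1.97, and from 1000 kb head was 1.51. Leaving out either head library gave ranges in head of 3.15 to 12.1 for the background, 279 to 374 for the Usp22 region, 8.29 to 11.02 for the near to far ratio and 0.963 to 3.29 for long-range contacts. Leaving out a limb replicate gave the other replicate's value, printed in the report. In the limb against non-limb fit, 3 of 29231 pairs passed without the filter on low counts, none of them a member. Under DESeq2 0 passed (1011 at an unadjusted p under 0.05), as with library totals or without either head library. Without a limb replicate, 1 limb sample is left, and no count is given. The fit was not run without body. The cause of these shifts was not tested. No paired analysis was possible because the labels carry no replicate numbers that limb shares with the other tissues.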
